A study of Mus musculus with 34 samples.

Results

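Peaks of 8 chromatin proteins and histone marks were examined at 10 C-type lectin receptor genes in mouse bone marrow-derived dendritic cells (BMDCs) with and without CTCF. The genes were Clec4n, Clec4d, Clec4e, Clec4a1, Clec4a3, Clec4a2, Clec7a, Clec9a, Cd209a and Mrc1, which are 10 of 55413 genes annotated in GENCODE vM21 (mm10). They were chosen by name, not by a measured value, and each was examined at its promoter (2.5 kb on each side of the start site, taken from the longest transcript) and within 50 kb of that site. Clec7a is annotated as a polymorphic pseudogene in that release, so 9 of the 10 genes also belong to the 21938 protein-coding genes used for comparison.

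C-type lectin receptors are surface proteins with which dendritic cells and macrophages recognize sugars and lipids of fungi, mycobacteria and damaged cells. Clec7a (Dectin-1) binds fungal beta-glucan, Clec4n (Dectin-2) binds mannan, Clec4e (Mincle) and Clec4d (MCL) bind mycobacterial glycolipid, Clec9a (DNGR-1) binds actin exposed on dead cells, Mrc1 (the mannose receptor) takes up glycosylated cargo, and Cd209a is a mouse relative of human DC-SIGN. Activating members signal through the kinase Syk and the adaptor Card9, either directly or through the Fc receptor gamma chain Fcer1g, whereas Clec4a2 (DCIR) carries an inhibitory motif. Clec4a1 and Clec4a3 are close relatives of Clec4a2.

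Bone marrow of 8 weeks old C57BL/6 mice, which carried CreER alone (WT) or CreER;CTCF fl/fl (KO), was cultured with GM-CSF for 6 days, and 4-hydroxytamoxifen was given to both genotypes on the first day. LPS, the endotoxin sensed by TLR4, was added at 100 ng/ml for 3 h in the conditions named WTLPS and KOLPS. Peaks of CTCF, of SMC1 (part of the cohesin ring), of p65 (an NF-κB protein) and of the histone marks H3K27ac, H3K4me3, H3K4me1 and H3K27me3 were listed for all 4 conditions, and peaks of STAT5 in WT and KO after 15 min of renewed GM-CSF. The 34 samples comprised 30 peak lists, 1 for each antibody and condition, and 4 inputs. CD11c+ cells were selected from the cultures with magnetic beads, and cultures were described as mainly MHCII-high cells with a minor CD11b-high fraction, both CD11c+, so the lists are averages over cells in which fewer cells with a bound site and less binding per cell cannot be told apart.

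With 1 list per condition there was no replicate spread, so no test between conditions was made and every difference below is a description of those libraries. The lists held 504 to 96475 peaks, and background coverage ranged from 0.705 to 5.76 fragments per base across the 22 narrow lists. H3K4me3 lay at the promoters of 10 of 10 dendritic and myeloid marker genes (Itgax, H2-Ab1, Cd74, Flt3, Csf2ra, Csf2rb, Zbtb46, Itgam, Spi1, Csf1r) and 3 of 3 macrophage markers in every condition. It lay at 1 of 3 T cell, 0 of 2 NK cell and 2 of 6 granulocyte markers in every condition, and those with it were Lck, S100a8 and Siglecf, while the T cell gene Cd3e and the granulocyte gene Elane had none. Among 4 non-haematopoietic markers it lay at 2 in WT and 1 in each other condition. The repressive mark H3K27me3 lay at 2 of the 10 dendritic and myeloid markers, Flt3 and Zbtb46, in every condition. In WT, WTLPS, KO and KOLPS it lay at 2, 2, 1 and 0 macrophage, 2, 2, 2 and 1 T cell, and 1, 1, 1 and 1 NK cell markers. For granulocyte markers the counts were 2, 2, 2 and 0, and for non-haematopoietic markers 1, 3, 2 and 2. Among all protein-coding promoters, H3K4me3 lay at 56.7, 57.0, 57.2 and 56.2% in these 4 conditions, and H3K27me3 at 27.1, 20.8, 27.6 and 11.8%. The H3K27me3 lists held 96475, 65880, 95080 and 26960 peaks in the same order. The markers are few, and no difference from these shares was tested.

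All members but Mrc1 and Cd209a lie on chromosome 6, and several share their surroundings. Clec4a1 (chr6:122921848-122934619, + strand) starts 30.8 kb from Clec4a3 (chr6:122952515-122969875, +). Clec4n (chr6:123229843-123247021, +), Clec4d (chr6:123262111-123275265, +) and Clec4e (chr6:123281789-123289870, −) start 32.3 and 27.8 kb from each other. Clec9a (chr6:129408862-129424763, +) and Clec7a (chr6:129461591-129472779, −) start 63.9 kb apart. Clec4a2 (chr6:123106428-123143999, +), Mrc1 (chr2:14229392-14332057, +) and Cd209a (chr8:3743397-3748984, −) share no window with another member. The 10 windows merged into 6 regions of 754.7 kb in all, so a peak in a shared window was counted once in totals and for each gene in gene counts. Other protein-coding genes start within these windows, among them Necap1 near Clec4a1, Clec4a4 near Clec4a3, Clec4b2 near Clec4a2, Olr1, Tmem52b and Clec1a near Clec7a, and Clec4g near Cd209a, and sites at their starts are named as such below.

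The first question was which of these receptor genes carried active promoter marks, and whether this differed with CTCF or LPS. H3K4me3, the mark of active promoters, lay at 9 of the 10 promoters in WT, WTLPS and KO and at 8 in KOLPS, against 56.7, 57.0, 57.2 and 56.2% of protein-coding genes. H3K27ac, found at active promoters and enhancers, lay at the same 9 promoters in all 4 conditions, against 44.1, 41.3, 44.5 and 40.8%. H3K4me1, which marks enhancers and the flanks of promoters, lay at 10, 10, 10 and 9 promoters in WT, WTLPS, KO and KOLPS, against 57.1, 57.3, 56.8 and 46.5%. H3K27me3, the repressive Polycomb mark, lay at 0, 0, 1 and 0 promoters, against 27.1, 20.8, 27.6 and 11.8%.

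Cd209a was the member without H3K4me3, H3K27ac or SMC1 at its promoter in any condition. Its H3K4me1 peak covered 1149, 1169 and 611 bp of the promoter in WT, WTLPS and KO, and none was called in KOLPS. The H3K27me3 peak counted there in KO reached 3 bp into the promoter, with its centre at 2.8 kb, inside the gene. Within 50 kb of Cd209a, H3K27me3 covered 16.5, 11.4, 21.3 and 4.2 kb in WT, WTLPS, KO and KOLPS. Whole lists covered 117041.8, 56694.3, 112809.1 and 18718.1 kb in the same order, so shorter lengths with LPS were not particular to this gene. In the Cd209a window the peak with the highest fold of each list lay in Clec4g, at 33.2, 33.9, 32.6 and 33.7 kb. Of the other members, Clec4d and Clec4e had at most 2 H3K27me3 peaks within 50 kb in any list, and 7 had none.

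**Figure D1:**
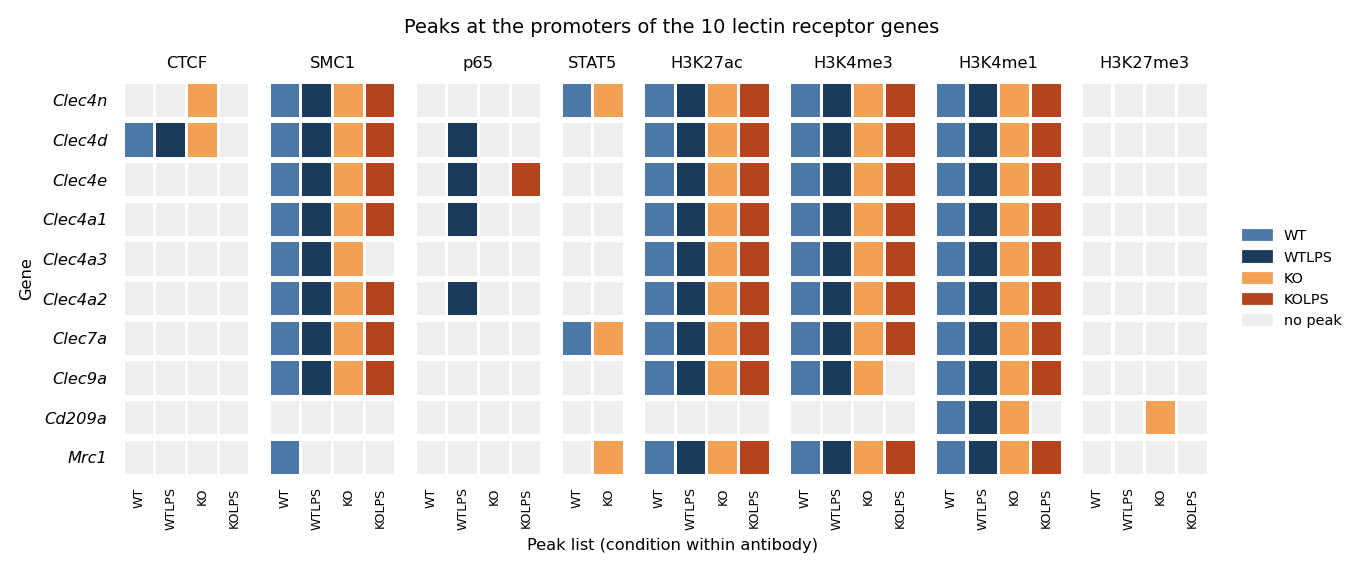
Peaks at the promoters of the 10 lectin receptor genes (rows) in the 30 peak lists (columns, grouped by antibody; a filled cell is a promoter with at least 1 peak, coloured by condition, and a grey cell has none). H3K27ac was filled for the same 9 genes in all 4 conditions, p65 for 4 genes in WTLPS and 1 in KOLPS, and CTCF for Clec4d in 3 conditions and Clec4n in KO.

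Promoter acetylation of the other genes, apart from Mrc1, ranked high within each list. Ranked by −log10 p among all H3K27ac peaks of the list, the strongest promoter peak of Clec4n, Clec4d, Clec4a1, Clec4a3, Clec4a2, Clec7a and Clec9a stood at or above 91.7% of peaks in every condition. Clec4e stood at or above 88.0, 98.2, 95.8 and 97.3% (order WT, WTLPS, KO, KOLPS). Mrc1 stood lowest, at 69.9, 17.4, 90.2 and 80.3% in the same order, and its strongest promoter peak was at −0.3, 1.1, −0.5 and 1.8 kb in these lists, so that WT and KO were ranked by overlapping peaks and WTLPS and KOLPS by others (negative distances lie upstream of the start site in the direction of transcription). H3K4me3 ranks were spread more widely. The highest were those of Clec4n, at 96.6, 76.1, 84.9 and 63.1% in WT, WTLPS, KO and KOLPS, and of Clec7a, at 95.8, 74.3, 90.2 and 83.8%.

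Clec9a had the weakest H3K4me3 of the 9 genes. Its promoter peak covered 581 bp in WT, 459 bp in WTLPS and 258 bp in KO, and none was called in KOLPS. The peak lay at −2.2, −1.7 and −2.2 kb, near the edge of the promoter, and stood at or above 37.6, 37.9 and 20.1% of H3K4me3 peaks. Within 50 kb of Clec9a, H3K4me3 covered 2.9, 1.4, 1.2 and 0.0 kb. The KO to WT ratio of this length was 0.392, and 0.683% of protein-coding genes had a ratio that low or lower, with a median of 1.04. Mrc1 had the next lowest ratio, 0.65 (from 5.9 to 3.8 kb), and the other 7 members with H3K4me3 ranged from 0.868 to 1.12. With LPS the length near Clec9a was also shorter in both genotypes. The WTLPS to WT ratio was 0.461, with 0.348% of protein-coding genes that low or lower and a median of 0.909. The KOLPS to KO ratio was 0.0, with 0.134% and a median of 0.793. In WT, WTLPS, KO and KOLPS the H3K4me3 libraries held 1.23, 1.15, 1.20 and 1.13 fragments per base of background, and the part of coverage in the Clec9a values was not tested.

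The next comparison was of p65, which enters the nucleus after TLR4 stimulation. In WTLPS the promoters of Clec4e, Clec4a1, Clec4d and Clec4a2 held a p65 peak, 4 of 10 genes against 2.86% of protein-coding genes. In KOLPS it lay at that of Clec4e, 1 of 10 against 1.86%, and no member promoter had one in WT or KO, against 0.474 and 0.342%. WTLPS held 13 p65 peaks within 50 kb of the members, KOLPS 3, WT 1 and KO 0, and 8 of the 10 members had at least 1 in WTLPS, against 20.2% of protein-coding genes. Cd209a and Mrc1 had none in any condition.

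Clec4e carried the strongest of these p65 peaks. In WTLPS the peak (chr6:123289748-123290966) had a fold enrichment of 22.1, which is 40 fragments at the summit over a background of 0.86 (each with 1 added), and stood at or above 96.4% of that list. In KOLPS 2 smaller peaks took its place, with folds of 12.1 and 6.60 and summits at −0.9 and −0.1 kb, and none was called in WT or KO. Clec4a1 followed at −0.2 kb with a fold of 11.9 (21 fragments), Clec4d at −1.8 kb with 8.08 (14 fragments) and Clec4a2 at 0.2 kb, in one of its exons, with 5.39 (9 fragments). At these 3 promoters no peak was called in KOLPS. The summit windows of Clec4e and Clec4a1 are shown because they are the strongest p65 peaks at member promoters, in GRCm38 sequence, 5′ to 3′ along the strand of the gene.

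Clec4e p65 summit at −0.9 kb, chr6:123290736-123290836, − strand:
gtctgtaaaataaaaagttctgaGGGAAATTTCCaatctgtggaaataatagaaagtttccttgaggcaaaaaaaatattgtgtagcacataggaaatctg

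Clec4a1 p65 summit at −0.2 kb, chr6:122921552-122921652, + strand:
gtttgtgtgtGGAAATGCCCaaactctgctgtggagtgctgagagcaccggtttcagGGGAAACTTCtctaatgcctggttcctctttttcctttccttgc

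Capitals mark stretches that differ from the NF-κB decamer consensus by 1 letter, and the 11 capital letters at Clec4e hold 2 overlapping ones. The exact consensus decamer, looked for on either strand no more than 50 bp from a summit, was found in 0 of the 13 WTLPS windows (0 to 22.8%, 95% Wilson interval for counting error), against 11.9% of all p65 peaks in that list, and the decamer lies somewhere in 43.1% of protein-coding promoters. With 1 letter off it was found in 5 of 13 (38.5%) against 36.9%. No match says only that these letters are not in the window.

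The remaining p65 sites lay away from member promoters, and most were in WTLPS alone. The next strongest, at −34.5 kb from Clec7a (chr6:129507085-129507454), lies 0.1 kb before the start of another lectin gene, Olr1, with a fold of 13.5 in WTLPS (24 fragments) and 7.71 in KOLPS (13 fragments). WTLPS peaks with no KOLPS peak lay at −22.3 kb (fold 6.47, in an Olr1 intron) and −42.5 kb (5.93, in a Tmem52b intron) from Clec7a. Others lay at −45.4 kb (5.39, in a Clec12a intron) and 25.5 kb (5.93, in a Clec1a intron) from Clec9a, at −9.2 kb from Clec4d (7.01), at −6.6 kb from Clec4a2 (4.31) and at 20.3 and 23.2 kb from Clec4a3 (4.85 and 6.47). The single WT peak, with a fold of 5.84 (9 fragments), lay 37.5 kb from Clec4a3 and 0.2 kb before the start of Clec4a4, and no other p65 list had a peak there.

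All 13 WTLPS peaks had no WT partner (77.2 to 100%), against 86.7% of all p65 peaks in the list, and 11 of 13 (84.6%, 57.8 to 95.7%) had no KOLPS partner, against 77.3%. Both shares were near those of the whole list. At the 2 shared sites the fold was 0.548 and 0.572 of the WTLPS value in KOLPS. Coverage of the WTLPS and KOLPS p65 libraries was 0.855 and 0.817 fragments per base, and thinned to the lower one 12.7 of the 13 peaks were expected to remain. All 13 WTLPS peaks overlapped an SMC1 and an H3K27ac peak of the same condition, against 88.0 and 75.4% of the list, and none overlapped a CTCF peak, against 6.33%. Of the 13 sites, 12 (92.3%) also had an SMC1 peak in WT, before LPS, against 72.4% of the list. The exception was the site at 23.2 kb from Clec4a3.

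**Figure D2:**
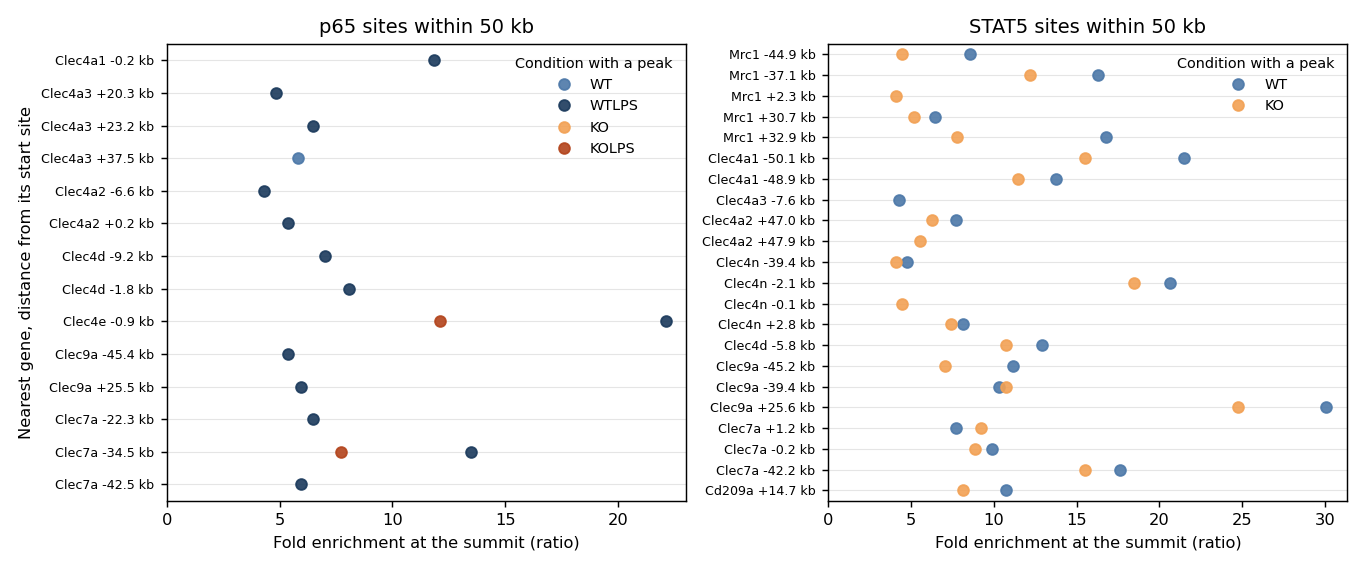
Fold enrichment at the summit (ratio) of p65 sites (left) and STAT5 sites (right) within 50 kb of the 10 genes, by nearest gene and distance from its start site in kb; each point is a peak in 1 condition, the stronger one where a condition had 2. The Clec4e promoter site stood at 22.1 in WTLPS and 12.1 in KOLPS, and 16 of the 18 STAT5 sites shared by WT and KO had the lower fold in KO.

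STAT5 is the transcription factor activated by the GM-CSF receptor, and its lists come from cells given GM-CSF again. Within 50 kb of the members there were 19 STAT5 peaks in WT and 21 in KO, and 10 and 9 members had at least 1, against 30.3 and 25.8% of protein-coding genes. At promoters it lay at Clec4n and Clec7a in WT, 2 of 10 against 3.96%, and at these and Mrc1 in KO, 3 of 10 against 3.29%. Of the WT peaks, 1 of 19 (5.26%, 0.935 to 24.6%) had no KO partner, against 35.2% of all STAT5 peaks in WT, and of the KO peaks 3 of 21 (14.3%, 4.98 to 34.6%) had no WT partner, against 22.8%. The WT peaks near the members had a mean fold of 12.6 and a median width of 431 bp, against 10.4 and 351 bp over the whole list. In KO these values were 9.61 and 334 bp, against 9.29 and 374 bp. The part of peak strength and width in these shares was not tested.

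At the Clec4n promoter the STAT5 peak at −2.1 kb had a fold of 20.6 in WT (47 fragments) and 18.5 in KO (49 fragments). Another in an intron, at 2.8 kb, had 8.16 and 7.395, and it reached the promoter in KO alone. At the Clec7a promoter the peak at −0.2 kb had 9.88 and 8.87, and the one at 1.2 kb, in an intron, 7.73 and 9.24. The highest fold lay between Clec9a and Clec7a, 25.6 kb from Clec9a in an intron of Clec1a (chr6:129434102-129434679), with 30.1 in WT (69 fragments) and 24.8 in KO (66 fragments). The p65 peak at 25.5 kb in WTLPS overlapped it. In all, 3 of the 13 p65 peaks overlapped a STAT5 peak of WT, the others being at −45.4 kb from Clec9a and −42.5 kb from Clec7a. The share of p65 peaks with such an overlap was slightly higher over the whole WTLPS list, so it was not raised near these genes.

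Sites called in 1 STAT5 list alone had low folds. KO alone had peaks at −0.1 kb from Clec4n (4.44), at 2.3 kb from Mrc1 in an intron (4.07) and at 47.9 kb from Clec4a2, near Clec4b2 (5.55). WT alone had the peak at −7.6 kb from Clec4a3 (4.30), the one WT peak without a KO partner. At the 18 shared sites the KO to WT ratio of fold ranged from 0.464 to 1.2 with a median of 0.828, and it was below 1 at 16. The lowest ratio was at 32.9 kb from Mrc1, in an intron, where the fold was 16.8 in WT and 7.77 in KO. The KO library had the higher background (1.70 fragments per base against 1.33 in WT), which enters the fold, and its part was not tested. Near Mrc1 the other sites had 16.3 and 12.2 at −37.1 kb, 8.59 and 4.44 at −44.9 kb, and 6.44 and 5.18 at 30.7 kb. Cd209a, which lacked active marks at its promoter, had a STAT5 peak at 14.7 kb with 10.7 in WT and 8.13 in KO, and it overlapped no H3K27ac peak in any condition. The site at −39.4 kb from Clec4n overlapped none either. In WT, 17 of the 19 STAT5 peaks near the members overlapped H3K27ac, against 57.4% of the whole list.

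The STAT5 motif was searched as TTCNNNGAA, which reads the same on both strands. It lay within 50 bp of 6 of 19 WT summits (31.6%, 15.4 to 54.0%) and 6 of 21 KO summits (28.6%, 13.8 to 50%), against 37.9% of each whole list, and it occurs somewhere in 79.5% of protein-coding promoters. The windows below, with the match in capitals and 30 bases to either side, are the clearest ones: those of Clec4d, Clec9a and Cd209a were bound in both genotypes, and the site of Clec4a3 is the one without a KO peak.

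Clec4d STAT5 site at −5.8 kb, chr6:123256272-123256340, + strand:
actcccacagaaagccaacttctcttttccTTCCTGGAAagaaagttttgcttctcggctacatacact

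Clec9a STAT5 site at −39.5 kb, chr6:129369376-129369444, + strand:
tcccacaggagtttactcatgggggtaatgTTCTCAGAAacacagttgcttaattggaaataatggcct

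Cd209a STAT5 site at 14.7 kb, chr8:3734258-3734326, − strand:
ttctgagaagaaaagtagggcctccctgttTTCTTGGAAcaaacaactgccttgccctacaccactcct

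Clec9a STAT5 site at −45.3 kb, chr6:129363512-129363580, + strand:
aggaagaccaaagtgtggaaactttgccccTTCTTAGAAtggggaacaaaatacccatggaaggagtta

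Clec4a3 STAT5 site at −7.6 kb, chr6:122944979-122945047, + strand:
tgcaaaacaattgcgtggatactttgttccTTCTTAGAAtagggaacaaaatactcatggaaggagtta

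The Clec4d site had a fold of 12.9 in WT and 10.7 in KO, and the Clec9a site at −39.5 kb had 10.3 and 10.7. The last 2 windows, over 6 Mb apart, hold the same 9 letters, and 57 of their 69 bases are identical (82.6%). Both matches lie in sequence masked as repeats. The Clec9a copy, in an intron of Clec12a, had a fold of 11.2 in WT and 7.03 in KO, while the Clec4a3 copy had 4.30 in WT (9 fragments) and no KO peak. By comparison the window of Clec4a3 shared 20 of 69 bases (29.0%) with the Clec9a window at −39.5 kb.

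CTCF itself was compared next, since it is the protein that was deleted. Within 50 kb of the members CTCF peaks numbered 29 and 26 in WT and WTLPS and 12 and 8 in KO and KOLPS, and the median per member was 5, 4, 1.5 and 1, against 5, 4, 1 and 1 for protein-coding genes. At promoters it lay at Clec4d in WT and WTLPS, 1 of 10 against 29.5 and 27.2%, at Clec4d and Clec4n in KO, 2 of 10 against 19.1%, and at none in KOLPS, against 10.1%. Clec4a2 had no CTCF peak within 50 kb in any condition. Of the WT peaks, 20 of 29 (69.0%, 50.8 to 82.7%) had no KO partner, against 76.3% of all WT CTCF peaks, and with LPS 20 of 26 (76.9%, 57.9 to 89.0%) had none, against 82.5%. Both intervals include the value of the whole list. Most WT peaks had a WTLPS partner, and 4 of 29 WT peaks (13.8%, 5.5 to 30.6%) had none, against 20.6%.

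The WT peaks that kept a KO partner were the stronger ones. Their fold ranged from 15.6 to 35.0 with a median of 21.3 (9 peaks), and that of the 20 without a partner from 3.64 to 15.2 with a median of 5.88. At the 9 shared sites the fold was lower in KO in every case, with a ratio of 0.214 to 0.911 and a median of 0.348. With LPS it was lower at 6 of 6 sites, with a ratio of 0.249 to 0.65. Over whole lists the mean CTCF fold was also lower in KO than in WT, and in KOLPS than in WTLPS. Whether the strength of kept peaks or the lower fold is particular to these genes was not tested. CTCF background was 3.74, 3.53, 2.95 and 2.82 fragments per base in the 4 lists, and if WT were thinned to the KO coverage, 25.1 of the 29 peaks would be expected to remain, 16.1 of them without a KO partner.

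Single sites differed widely in how much CTCF remained. The strongest, −29.2 kb from Clec4a1 and outside genes (chr6:122892064-122893102), had folds of 35.0, 30.2, 13.2 and 10.2 in WT, WTLPS, KO and KOLPS. The site at −42.8 kb from Clec9a had 23.2, 18.5, 14.9 and 12.04, and the one at −15.5 kb had 23.4, 28.2, 9.87 and 8.64. The site 30.2 kb from Cd209a kept the largest share in KO, with 16.7, 15.4, 15.2 and 9.68. It lies inside the annotated Clec4g gene, 1.2 kb before the start of its longest transcript. At the Clec4d promoter the fold was 15.6 in WT (73 fragments) and 11.9 in WTLPS (53 fragments) and 4.56 in KO (17 fragments), and no peak was called in KOLPS. Near Mrc1 the 2 intronic sites, at 20.7 and 22.7 kb, had 11.4 and 12.9 in WT, 7.50 and 8.07 in WTLPS, and no peak in KO or KOLPS.

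**Figure D3:**
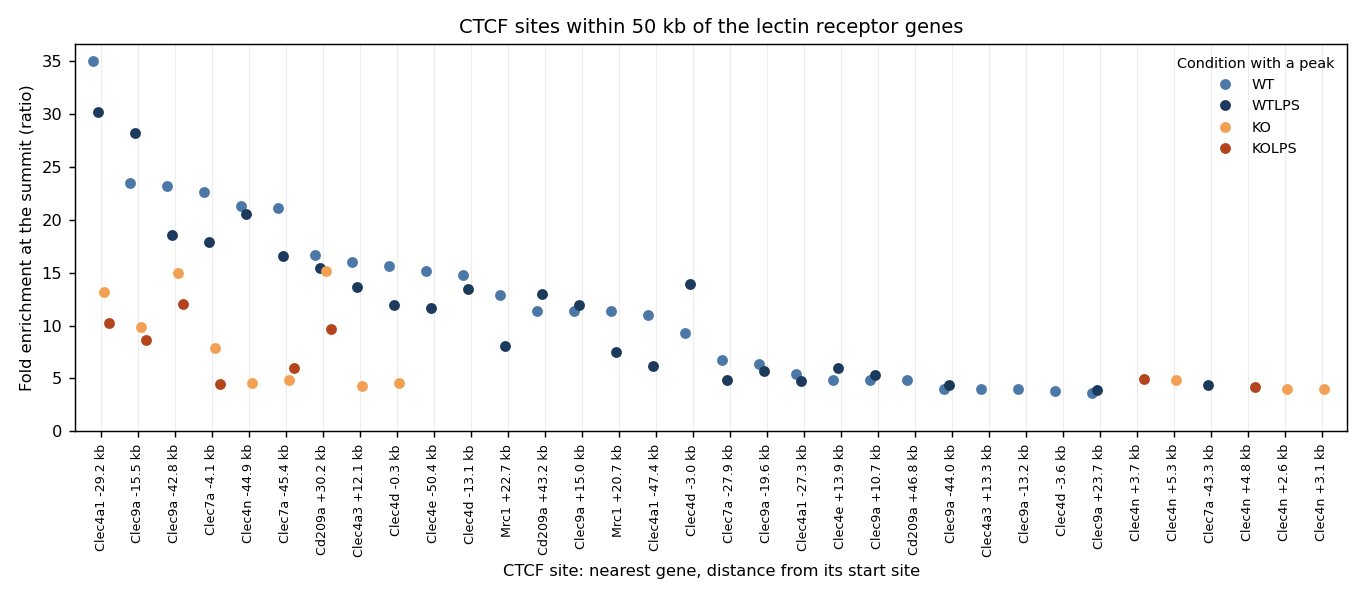
Fold enrichment at the summit (ratio) of every CTCF site within 50 kb of the 10 genes, ordered by the WT fold, by nearest gene and distance from its start site in kb; each point is a peak in 1 condition. All 9 sites with a peak in both WT and KO stood lower in KO, and the 5 sites seen in CTCF-KO cells alone lie between 2.6 and 5.3 kb from the Clec4n start.

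All 5 CTCF sites called in KO or KOLPS and in neither WT nor WTLPS lay in introns of Clec4n. KO had peaks at 2.6, 3.1 and 5.3 kb, with folds of 4.05, 4.05 and 4.81, and KOLPS had peaks at 3.7 and 4.8 kb, with 4.97 and 4.19. These were low values, with 15 to 18 fragments at the summit, and the peak at 2.6 kb, which is the Clec4n promoter peak counted above, had a −log10 p of 7.004, at the floor of the list. No site was shared by KO and KOLPS, and none held the CTCF letters anywhere in the peak. The region was covered by H3K27ac in all 4 conditions, and the H3K4me3 peak of the Clec4n promoter stood at or above 96.6% of its list in WT. Over whole lists, 23.3% of KO CTCF peaks had no WT partner, and 27.7% of KO peaks overlapped H3K4me3 of KO.

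The CTCF letters CCNNNAGNNGGC, or GCCNNCTNNNGG on the other strand, lay within 50 bp of 7 of 29 WT summits (24.1%, 12.2 to 42.1%), against 30.5% of the whole list, and they occur somewhere in 59.0% of protein-coding promoters. In KO they lay at 3 of 12 summits (25%, 8.89 to 53.2%), against 23.8%. The windows below are shown because the first 3 hold different forms of the motif and the last 2 are nearly the same sequence with different outcomes.

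Clec9a CTCF site at −42.8 kb, chr6:129366040-129366111, + strand:
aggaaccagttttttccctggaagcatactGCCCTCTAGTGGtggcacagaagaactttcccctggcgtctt

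Clec7a CTCF site at −45.4 kb, chr6:129518181-129518252, − strand:
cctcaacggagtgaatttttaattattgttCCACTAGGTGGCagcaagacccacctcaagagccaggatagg

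Clec4a3 CTCF site at 12.1 kb, chr6:122964717-122964788, + strand:
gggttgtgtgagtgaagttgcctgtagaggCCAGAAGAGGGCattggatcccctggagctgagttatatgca

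Clec4n CTCF site at −44.8 kb, chr6:123185029-123185100, + strand:
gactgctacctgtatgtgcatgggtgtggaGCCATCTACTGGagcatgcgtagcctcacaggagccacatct

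Clec4d CTCF site at −13.1 kb, chr6:123249026-123249097, + strand:
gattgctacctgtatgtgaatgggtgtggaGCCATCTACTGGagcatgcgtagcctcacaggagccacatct

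The Clec9a site lies outside genes and had a peak in all 4 conditions. The Clec7a site, in an exon of Tmem52b, had folds of 21.1, 16.5, 4.81 and 6.02 in WT, WTLPS, KO and KOLPS. The Clec4a3 site, in one of its own introns and in masked sequence, had 16.0 in WT, 13.7 in WTLPS, 4.30 in KO and no peak in KOLPS. Its letters, CCAGAAGAGGGC, were the most frequent of 519 forms, at 46.9% of all matches near WT CTCF summits. The Clec4n and Clec4d windows lie 64.0 kb apart in masked sequence, the first in an intron of Clec4b2 and the second outside genes, and 70 of their 72 bases are identical (97.2%). The Clec4n copy had 21.3, 20.5 and 4.56 in WT, WTLPS and KO, and the Clec4d copy 14.8 and 13.5 in WT and WTLPS and no peak in KO. Neither had a KOLPS peak. The KO peak of the Clec4n copy had 17 fragments, little above the 15 of the KO peak at 2.6 kb from Clec4n, which was at the floor of the list. The copies thus differed in KO by a weak call. Reads from copies this alike can be hard to place, and how they were counted was not tested.

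Cohesin was compared as the partner of CTCF in chromatin looping. SMC1 lay at 9, 8, 8 and 7 of the 10 member promoters in WT, WTLPS, KO and KOLPS, against 30.4, 27.1, 21.6 and 13.9% of protein-coding genes. The median member had 15, 15, 12 and 6.5 SMC1 peaks within 50 kb, against 4, 3, 1 and 0. At the promoter itself, Clec4a3 had no SMC1 peak in KOLPS, Mrc1 had a weak one in WT alone (fold 3.44), and Cd209a had none in any condition. The strongest promoter peaks in WT were at Clec4a2 (fold 14.7, 9.16, 10.9 and 7.28 in WT, WTLPS, KO and KOLPS), Clec9a (10.6, 8.43, 7.89 and 6.37), Clec4n (10.1, 11.2, 10.1 and 9.65) and Clec4a1 (9.99, 11.2, 9.15 and 6.55). The Clec4n peak, at −2.1 kb, overlapped the STAT5 peak described above. At Clec4d the highest fold was 7.50 at −0.3 kb in WT, and 10.8, 7.73 and 7.10 at −1.7 kb in WTLPS, KO and KOLPS. At Clec7a it was 8.43, 7.39, 8.52 and 6.01, and at Clec4e 4.37, 5.77, 4.26 and 4.00.

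A smaller share of SMC1 peaks was without a KO partner around these genes than in the whole list. Of 103 WT peaks within 50 kb, 40 (38.8%, 30 to 48.5%) had none, against 65.5% of all WT SMC1 peaks, and with LPS 46 of 83 (55.4%, 44.7 to 65.6%) had none in KOLPS, against 76.7%. In the other direction, 21 of 84 KO peaks (25%, 17.0 to 35.2%) had no WT partner, against 25.3%, and 33 of 103 WT peaks (32.0%, 23.8 to 41.6%) had no WTLPS partner, against 25.5%. The gap to the whole list was largest among SMC1 peaks that overlapped CTCF. Of the 21 WT peaks with CTCF, 13 (61.9%, 40.9 to 79.2%) had a KO partner, against 16.3% of all such peaks. Of the 82 without CTCF, 50 (61.0%, 50.2 to 70.8%) had one, against 55.7%. With LPS the difference was alike: 8 of 23 WTLPS peaks with CTCF (34.8%, 18.8 to 55.1%) had a KOLPS partner, against 10.8%, and 29 of 60 without it (48.3%, 36.2 to 60.7%), against 37.9%. Split by H3K27ac instead, the WT shares with a KO partner were near those of the whole list: 60 of 89 with H3K27ac (67.4%, 57.1 to 76.3%) against 64.6%, and 3 of 14 without it (21.4%, 7.57 to 47.6%) against 17.7%. With LPS this held for peaks with H3K27ac, 31 of 64 (48.4%, 36.6 to 60.4%) against 46.4%, but those without it kept a KOLPS partner in 6 of 19 (31.6%, 15.4 to 54.0%), against 10.8%. The intervals cover counting error, peaks of 1 region are not independent, and no test was made. In these windows 22 of 29 WT CTCF peaks (75.9%) overlapped H3K27ac, against 12.4% of the whole list, and H3K27ac covered 200.4 of the 754.7 kb.

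The CTCF letters were rarer at SMC1 summits near these genes than in the whole list. They lay within 50 bp of 3 of 103 WT SMC1 summits (2.91%, 0.995 to 8.22%), against 22.0%, and 2 of 84 KO summits (2.38%, 0.655 to 8.27%), against 3.87%. CTCF peaks overlapped 20.4% of the 103, against 53.9%. The strongest SMC1 peak of any condition lay at the CTCF site −15.5 kb from Clec9a, with folds of 36.7 in WT and 37.5 in WTLPS.

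By length of sequence, SMC1 near Clec7a covered as much in KO as in WT. Peaks covered 17.5 kb within 50 kb of Clec7a in WT and 18.6 kb in KO, a ratio of 1.06, and 98.6% of protein-coding genes had a ratio at or below it, with a median of 0.306. Ratios of 0.935 for Clec4d, 0.853 for Clec4n, 0.804 for Clec9a and 0.745 for Clec4e followed, then 0.662 for Clec4a3, 0.587 for Clec4a1, 0.521 for Mrc1, 0.468 for Clec4a2 and 0.192 for Cd209a (from 1.4 to 0.3 kb). In KOLPS less remained. The KOLPS to WTLPS ratio was 0.5 for Clec7a, 0.383 for Clec4d, 0.381 for Clec4e and for Clec9a and 0.313 for Clec4n, against a median of 0.136, and the other 5 members ranged from 0.153 to 0.264. The mean fold of SMC1 peaks in the windows was 6.86, 7.20, 5.07 and 5.07 in WT, WTLPS, KO and KOLPS, against 6.92, 6.74, 4.82 and 5.06 over whole lists. SMC1 background was 5.40, 5.76, 5.34 and 4.50 fragments per base in these lists. Thinning WTLPS to the coverage of KOLPS would leave an expected 72.0 of its 83 peaks, 36.4 of them (50.6%) without a KOLPS partner.

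**Figure D4:**
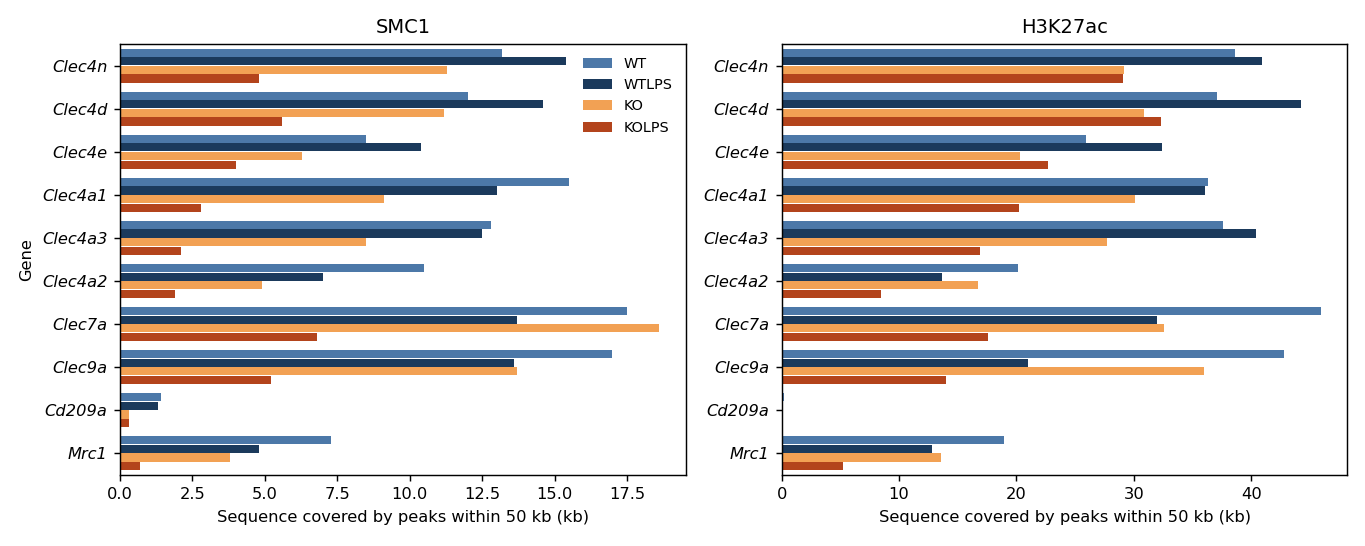
Length of sequence covered by SMC1 peaks (left) and H3K27ac peaks (right) within 50 kb of each start site, in kb; each bar is 1 gene in 1 condition, with 1 library per condition and no error bar. SMC1 near Clec7a covered 17.5 kb in WT and 18.6 kb in KO, and H3K27ac near Clec4n, Clec4d and Clec4e was longer in WTLPS than in WT.

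With LPS, the sequence covered by H3K27ac was longer around Clec4e, Clec4d and Clec4n, in both genotypes except Clec4n in KO, and relative to all genes it ranked above the other members in KO. H3K27ac within 50 kb covered 25.9 kb in WT and 32.4 kb in WTLPS at Clec4e (ratio 1.25), 37.1 and 44.2 kb at Clec4d (1.19), and 38.6 and 40.9 kb at Clec4n (1.06), against a median ratio of 0.845. Clec4a3 (1.08) and Clec4a1 (0.993) also stood above that median. Clec7a (0.697), Clec4a2 (0.681), Mrc1 (0.677) and Clec9a (0.49, from 42.8 to 21.0 kb) stood below it. In KO the order was alike for the same 3 genes: the KOLPS to KO ratio was 1.12 at Clec4e, 1.04 at Clec4d and 0.996 at Clec4n, against a median of 0.725, and the other 6 ranged from 0.383 to 0.671. Clec4a3 and Clec4a1 were then below the median, at 0.611 and 0.671. The 3 genes share much of their windows, so these are not 3 separate observations. SMC1 length moved the same way there in WT, with WTLPS to WT ratios of 1.22, 1.21 and 1.16 at Clec4e, Clec4d and Clec4n against a median of 0.93, while in KO the ratios were 0.624, 0.497 and 0.427 against 0.453.

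Without LPS, the KO to WT ratio of H3K27ac length was close to the median of all genes for every member with H3K27ac. It ranged from 0.71 (Clec7a) to 0.84 (Clec9a), against a median of 0.754. With LPS the KOLPS to WTLPS ratio ranged from 0.409 (Mrc1) and 0.418 (Clec4a3) to 0.71 (Clec4n) and 0.732 (Clec4d), against 0.613. H3K27ac background was 1.17 and 1.20 fragments per base in WT and WTLPS and 0.748 and 0.801 in KO and KOLPS, and peaks over whole lists were narrower in KO, with median widths of 369, 392, 271 and 242 bp. Length thus moved with library and genotype together, which cannot be told apart. In the windows the number of H3K27ac peaks was 209, 189, 239 and 192 and their mean fold was 6.07, 5.74, 6.74 and 6.35. The mean fold over whole lists was 5.61, 5.66, 6.24 and 5.74. Background enters the fold, and its part was not tested.

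**Figure D5:**
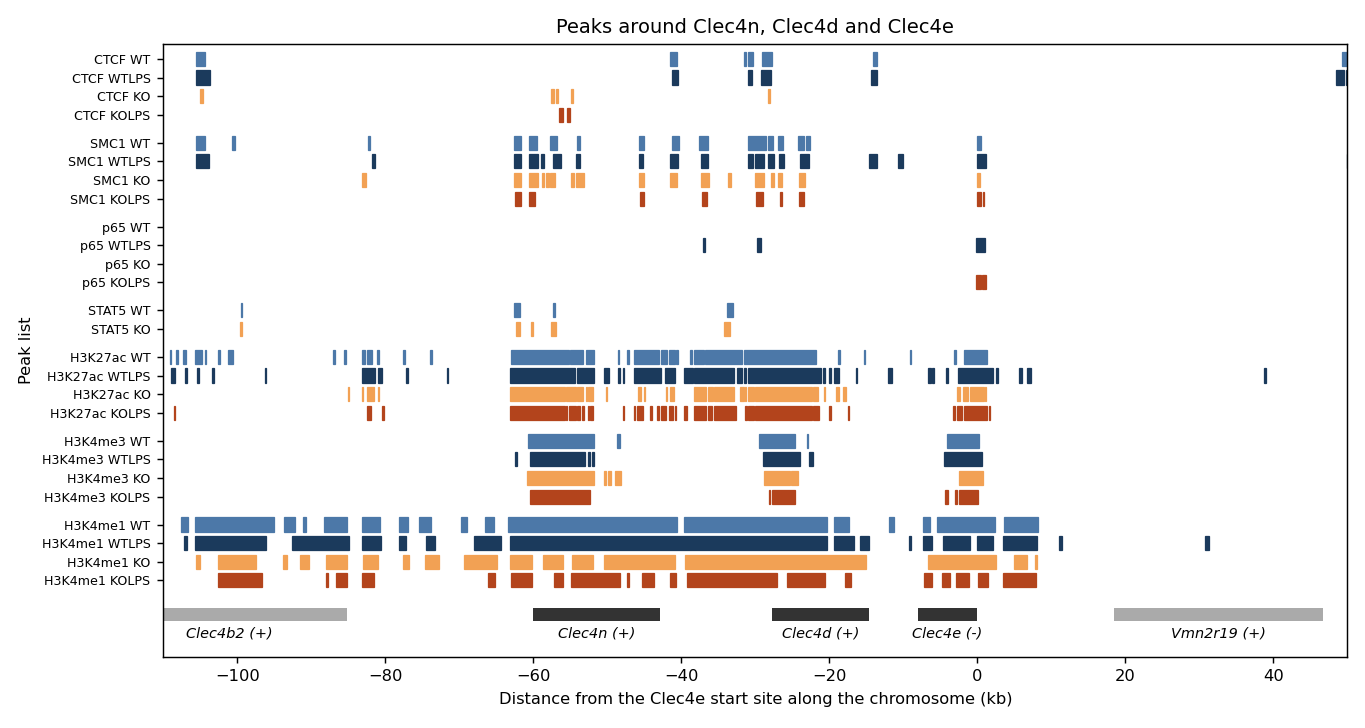
Peaks of all antibodies but H3K27me3 around Clec4n, Clec4d and Clec4e, by distance along the chromosome from the Clec4e start site in kb; each row is 1 list, each block 1 peak drawn to scale and coloured by condition, and gene bodies are at the bottom with their strand (members dark, other protein-coding genes grey). The p65 block at the Clec4e start is present in WTLPS and KOLPS, and CTCF blocks near the Clec4n start in KO and KOLPS alone.

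The overlap of H3K4me1 between genotypes, as a share of covered bases, was higher here than over whole lists. The Jaccard index (shared bases over the bases of either list) was 0.798 between WT and KO within the windows and 0.641 over whole lists, and 0.699 and 0.49 between WTLPS and KOLPS. For H3K27ac it was 0.53 and 0.405 without LPS and 0.415 and 0.335 with LPS, and for H3K4me3 0.745 and 0.732 and then 0.727 and 0.723. The index tends to be higher where a mark covers more of the sequence. In WT, H3K4me1 covered 441.2 and H3K27ac 200.4 of the 754.7 kb, and the part of this in the index was not tested. H3K4me1 covered most of the surroundings of Mrc1 (85.6, 88.5, 77.7 and 64.3 kb of the window) and Clec7a (80.2, 77.7, 77.2 and 65.5 kb) and least of those of Cd209a (24.9, 22.4, 22.8 and 13.3 kb).

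For comparison, 26 other C-type lectin genes and 14 signalling partners of the receptors were counted in the same way. H3K27ac lay at 17, 13, 14 and 13 of the 26 other lectin promoters in WT, WTLPS, KO and KOLPS, and H3K4me3 at 13, 12, 12 and 7. SMC1 lay at 14, 14, 14 and 9 of them. p65 lay at Clec2d and Olr1 in WTLPS and at Olr1 in KOLPS, and in WT at Clec4a4. H3K27me3 lay at Clec4f, Clec4g, Cd207, Cd209d, Cd209e and Mrc2 in WT. Among the 14 partners, H3K27ac lay at 11, 13, 12 and 12 promoters and H3K27me3 at none. Syk, Card9, Bcl10, Fcer1g, Tyrobp, Plcg2, Prkcd, Vav1, Ptpn6, Ptpn11 and Inpp5d carried it in all 4 conditions. SMC1 lay at 10, 10, 10 and 5 partner promoters and CTCF at 6, 5, 1 and 1, the last being Vav1. p65 lay at Syk and Prkcd in WTLPS and at Bcl10 in WT and KOLPS, and STAT5 at Syk, Prkcd and Ptpn11 in WT and at Prkcd in KO.

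The pattern of promoter peaks over the 30 lists was compared between genes by the Jaccard index of presence, among the members and both lists above. Clec4a1 and Clec4a2 had identical patterns (1.0, 17 lists each). Clec4e matched Olr1 (1.0, 18 lists), the other lectin gene with p65 in WTLPS and KOLPS. Clec4d matched Clec2d (1.0, 20 lists), Clec4a3 matched Clec5a and Fcer1g (1.0, 15 lists), and Clec9a matched Clec4b1 (1.0, 15 lists). Clec4n and Clec7a were most alike to each other (0.947, with 19 and 18 lists) and next to Syk (0.85 and 0.895). Mrc1 was most like Clec4a3, Clec5a and Fcer1g (0.812 each), and Cd209a, with peaks in 4 lists, was most like Cd209e (0.6). Of the 30 lists compared, 16 are of histone marks.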

How the data were processed

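Chromatin from immunoprecipitation was tagmented for paired-end sequencing. The authors aligned reads to mm10, removed duplicates and called peaks against input, and their processing notes name BWA 0.7.12, Picard 1.77, MACS2 2.1.2 and deepTools 3.1.3. The deposited columns of every peak are a fold enrichment (a ratio of fragments to local background, each with 1 added), the −log10 of its p- and q-value, and a score, which was not used for any result. Narrow lists carry a summit, and the deposited values of the broad H3K4me1 and H3K27me3 lists are averages over a region. Each antibody and condition has 1 list. The study used biological replicates, its methods describe peak calling on each of them, and a general statement says that replicates were merged, so whether a given list comes from merged or single replicates is uncertain. No total count was in the lists. The p65 lists are named as filtered for problem regions. The H3K4me1 peak names carry another supplier's mark than the labels, and sources differ on the catalogue number of the STAT5 antibody, so which antibodies were used is uncertain.

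Peaks were assigned to genes with GENCODE vM21, and sequences were read from the GRCm38 RefSeq genome. Peaks of a pair of lists were partners when they shared at least 1 bp. Fragments and background were recovered from fold and −log10 p for 99.96 to 100% of narrow peaks with −log10 p below 25 (tolerance 0.002), and the method was tested on simulated data. Shares have 95% Wilson intervals, which cover counting error only. Fold and −log10 values of histone marks served only as ranks within a list, apart from the mean H3K27ac folds given for each condition. Lengths were compared for genes with at least 1000 bp covered in the first list. All 10 members are named. Single peaks are named at member promoters, as the highest of a list, where p65 or STAT5 differed between conditions, and CTCF sites by choice after their values were seen. Sequences were likewise chosen after the values were seen. The members, gene lists and comparisons were chosen with earlier results of these data known. One of the lists of cell type markers is not reported here. Alternatives covered promoter and window width, start sites, thresholds, overlap, coverage and the genes compared. Python 3.11.15, numpy 2.4.6, pandas 2.3.3, scipy 1.17.1 and matplotlib 3.10.9 were used.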

Additional observations from a re-analysis of the deposited data

Results flagged for a closer look

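The H3K4me1 values differed in opposite directions with LPS in the genotypes, in libraries of 1 per condition, and the difference was not tested. Around the lectin receptor genes there were 72 H3K4me1 peaks in WT and 70 in WTLPS, but 69 in KO and 93 in KOLPS, so the WT side rests on a difference of 2 peaks. Whole lists held fewer peaks with LPS in both genotypes, 94694 in WT and 89884 in WTLPS, and 93525 in KO and 79120 in KOLPS. The sequence they covered was 441.2 kb in WT and 449.5 kb in WTLPS, and 428.5 kb in KO and 330.2 kb in KOLPS, so in KO the peaks were more numerous and the covered length shorter with LPS. Over whole lists H3K4me1 covered 258932.6 kb in WT, 263033.9 kb in WTLPS, 232111.6 kb in KO and 148584.0 kb in KOLPS.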

How the results depend on the processing

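Of 150 recomputed counts of member promoters 137 stayed within 1.5 times the reported count, as did 92 of 156 counts within 50 kb, and 47 of 56 shares stayed within the interval reported. The 2 CTCF promoters in KO became 1 with a promoter of 1 kb on each side, with a common floor or by summit position, and 0 under the stricter threshold. The 2 STAT5 promoters in WT became 1 with the narrower promoter. When 50% of a peak had to be covered, the share without a partner was 96.6% for CTCF in WT against KO (all peaks 94.4%), 96.2% in WTLPS against KOLPS (97.1%), 51.5% for SMC1 in WT against KO (73.7%), 72.3% in WTLPS against KOLPS (86.1%) and 41.7% in WT against WTLPS (29.2%). Under the stricter threshold it was 56.6% for SMC1 in WT against KO (78.3%), 75.5% in WTLPS against KOLPS (87.5%), 15.1% in WT against WTLPS (21.4%) and 0% for STAT5 in KO against WT (13.6%). These alternatives demand more overlap or leave fewer peaks. Against all peaks of the list, 5 shares changed sides: CTCF in WT against KO with 50% covered and SMC1 in WT against WTLPS under the stricter threshold, as given, CTCF in WTLPS against KOLPS (84.6% against 82.5%) and STAT5 in KO against WT (25% against 22.8%) with a window of 25 kb, and p65 in WTLPS against WT (83.3% against 86.7%) with a window of 100 kb. Over all annotated genes the share with a promoter peak was lower in 30 of 30 lists, at 0.525 to 0.823 of that for protein-coding genes. With letters searched in the whole peak, a choice made after seeing the data, CTCF letters lay in 13 of 29 WT peaks (44.8%, all 55.8%) and STAT5 letters in 11 of 19 (57.9%, all 63.0%). No paired analysis was possible because each condition has 1 list. Low coverage of p65 libraries limits what an absent p65 peak shows.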
